A study of Caenorhabditis elegans with 2 samples.

Results

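The histone genes of *Caenorhabditis elegans* were set beside the sites bound by a GFP-tagged copy of CEH-8, a homeodomain transcription factor. The genes were the protein-coding genes whose name is his- followed by a number in the WBcel235 annotation, 72 of the 19973 protein-coding genes on the 6 nuclear chromosomes. The study sequenced DNA precipitated by an anti-GFP antibody from chromatin of whole L1 larvae, 6 hours old, of mixed sex and starved after bleaching. There were 2 biological replicates, both of strain OP760. The strain has the allele unc-119(tm4063) and the insertion wgIs760, which holds ceh-8::TY1::EGFP::3xFLAG together with the marker unc-119(+). The 2 replicates form 1 group, so there was no comparison between conditions. The tagged ceh-8 is a transgene carried beside the worm's own gene. The chromatin came from whole larvae, so the cells in which a site was bound are not recorded. A gene was counted as having a peak where the summit, the highest point of the peak, lay in the gene or within 1000 bp of it. A summit between neighbouring genes therefore counted for each of them.

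Histones are the proteins around which DNA is wound into nucleosomes. The core of a nucleosome holds H2A, H2B, H3 and H4, and the linker histone H1 binds the DNA where it enters and leaves. Most core histone genes are replication-dependent: they are used when DNA is copied, have no introns, stand in clusters of near-identical copies and end their mRNAs in a short stem-loop rather than a poly(A) tail. Replacement histones such as H3.3 are put into chromatin outside DNA replication, and their genes usually stand alone and have introns. Starved L1 larvae are arrested in development.

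By the product names of RefSeq, the 72 genes encoded H2A (17 genes), H2B (16), H3 (15), H4 (16), H3.3 (5) and H1 (1, his-24), and 2 were H3-type fragments, his-39 and his-73. Because of the copies there were 49 distinct coding sequences among the 72 genes, and 37 genes shared theirs with at least 1 other. A gene was called clustered where another histone gene lay within 5000 bp of it, which gave 67 clustered genes in 14 multigene loci and 5 single genes, his-24, his-71, his-72, his-73 and his-74. The annotation gave introns to 8 genes. A perfect stem-loop, an inverted repeat of 6 bases beginning GG around a loop of 4 bases, was found within 200 bp past the stop codon of 57 genes, 32 to 58 bases past it. The same search found a match past the stop codon of 29 of 19901 other genes, or 0.146%. With 1 unpaired position allowed, 62 histone genes had a match. This form of the search was set after the sequences had been read, so these counts describe the genes. The perfect form does not mark every clustered gene: his-47, his-53 and his-19, which share their coding sequence with genes that have it, had no perfect match. The stem-loop is shown because the genes are divided by it further on, with the paired bases in capitals and the loop in lower case. The first form stood at 52 genes on chromosomes II, IV, V and X and the second at 4 genes on V, and the match of his-67 is not shown.
his-16 and 51 other genes: GGCCCTctttAGGGCC
his-52, his-54, his-20 and his-22: GGCCCTcttaAGGGCC

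The authors deposited 4 peak lists: 30000 peaks for replicate 1, for replicate 2 and for both replicates pooled, and 1891 optimal IDR peaks. IDR, the irreproducible discovery rate, measures how alike peaks rank in replicates, and the IDR list was the 1891 strongest pooled peaks. Each peak carries a signal value of the authors, on a scale they do not name in the texts at hand. It was used only to rank peaks within a list, with rank 1 the strongest. Read depth is unknown from these files. The tagged gene ceh-8 itself had 6 IDR summits within 1000 bp, the best at rank 23. In these lists, reads from the ceh-8 transgene cannot be told apart from those of the worm's own gene. These summits are therefore no check of the target.

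Among the histone genes, 7 of 72 had an IDR summit (9.72%, exact 95% binomial interval 4 to 19, over genes that share summits), against 9.9% of all protein-coding genes. The members' share was thus close to the background. In the longer lists the histone genes stood below it. In replicate 1, 23 histone genes (31.9%) had a summit, against 71.6% of all genes. In replicate 2 the number was 26 (36.1%), against 72.9% of all genes. Pooled reads gave 25 histone genes (34.7%), against 72% of all genes. No summit in any of these 3 lists lay at 37 histone genes (51.4%), against 12.7% of all genes, and a summit in all 3 lay at 16 (22.2%), against 55.1%. When each replicate was limited to its 1891 strongest peaks, 7 histone genes had a summit in replicate 1, against 9.76% of all genes, and 8 in replicate 2, against 9.59%. A strong peak in both replicates, with summits within 200 bp of each other, lay at 7 histone genes (9.72%), against 6.22% of all genes. These 7 were the genes of the IDR list, and the eighth gene in replicate 2 was his-72.

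**Figure D1:**
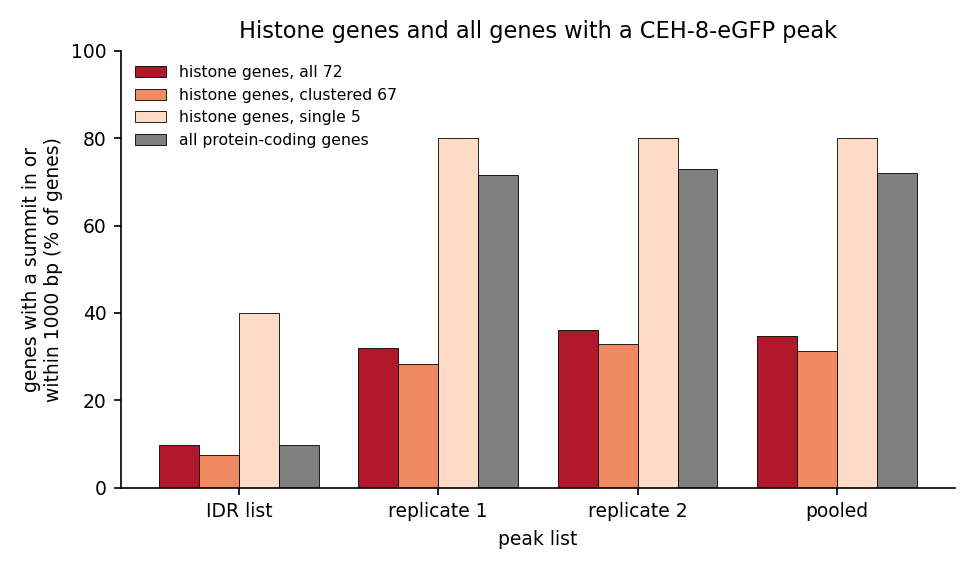
Share of genes with a summit in the gene or within 1000 bp (y axis, percent of genes) in each of the 4 peak lists (x axis), for all 72 histone genes, the 67 clustered and the 5 single ones, and for all protein-coding genes. In the IDR list all histone genes (9.72%) stand beside all genes (9.9%). In the 3 full lists clustered histone genes (28.4% to 32.8%) stand below all genes. The single genes stand at 80% in each full list, which is 4 of 5 genes. Their binomial interval of 28.4 to 99.5 includes the share over all genes (71.6% to 72.9%).

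The 7 genes were his-37, his-41, his-35, his-67, his-68, his-74 and his-24, with 5 IDR summits among them in 4 of the 19 loci. All 5 summits lay outside the histone genes themselves. On ce11, 3 of them were upstream of a histone gene.

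The strongest was upstream of his-37, an intron-bearing H4 gene (V, 9546963 to 9547076). Its summit lay 91 bp before the gene start, in sequence with no annotated gene. It had signal 354.3 and rank 82 in the pooled list, rank 85 with signal 201.7 in replicate 1 and rank 107 with signal 157.3 in replicate 2. The same summit was within 1000 bp of his-41, an H2B gene with an intron, past its 3′ end. This was the one histone peak among the strongest 1% of the full lists.

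The linker histone gene his-24 had its IDR summit 16 bp before the gene start (X, 14489903 to 14490252), inside the non-coding RNA gene M163.19 on the opposite strand. It ranked 906 in the pooled list with signal 130.7, 1310 with signal 61.0 in replicate 1 and 1344 with signal 53.1 in replicate 2. Both replicate summits stood at the same base as the pooled one. A further pooled summit lay inside his-24, 568 bp from its start, with rank 2150 and signal 82.7. In replicate 1 that peak was stronger than the one upstream, with rank 648 and signal 86.6. Replicate 2 had no peak within 200 bp of it.

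A further 2 IDR summits were past the 3′ end of a histone gene and closer to the start of another gene. The summit at his-74, an H3.3 gene, was 137 bp past its end (V, 12659392 to 12659741) and in the 5′ UTR of ccch-3, 120 bp from that gene's start. It ranked 934 in the pooled list with signal 129.0, 1009 with signal 69.6 in replicate 1 and 995 with signal 60.7 in replicate 2. The summit at his-35, an H2A gene with an intron, was 230 bp past its end (V, 9544254 to 9544603) and 203 bp before the start of mdf-1, a spindle checkpoint gene. It ranked 1251 in the pooled list with signal 110.2, 1625 with signal 54.3 in replicate 1 and 1147 with signal 57.2 in replicate 2. When a summit was given only to the nearest protein-coding gene, 3 histone genes kept an IDR summit: his-37, his-24 and his-68.

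The remaining summit lay between the starts of his-67 and his-68, an H4 and an H2A gene that are transcribed away from each other (chromosome I, 9988843 to 9989192), 114 bp before his-68 and 255 bp before his-67. It ranked 993 in the pooled list with signal 124.8, 970 with signal 71.1 in replicate 1 and 1325 with signal 53.4 in replicate 2. It was the only IDR summit at a gene with a perfect stem-loop, his-67, and his-68 had a match with 1 unpaired position. Across the 5 summits, replicate 1 summits were 0 to 45 bp and replicate 2 summits 0 to 11 bp from the pooled ones, and every one of them was among the 1891 strongest peaks of both replicates.

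The pooled peak upstream of his-72, an H3.3 gene, missed the list at rank 1971 with signal 86.2. In replicate 2 it ranked 1270 with signal 54.5, but in replicate 1 it ranked 8269 with signal 29.1. The peak between his-61 and his-62, an H2A and an H2B gene, had pooled rank 2028, rank 2984 in replicate 1 and rank 2128 in replicate 2. The peak between his-60 and his-59, an H4 and an H3 gene, had pooled rank 2105 with signal 83.7, rank 2100 in replicate 1 and rank 5877 in replicate 2. These 3 peaks were all within 200 bp upstream of a histone gene start.

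**Figure D2:**
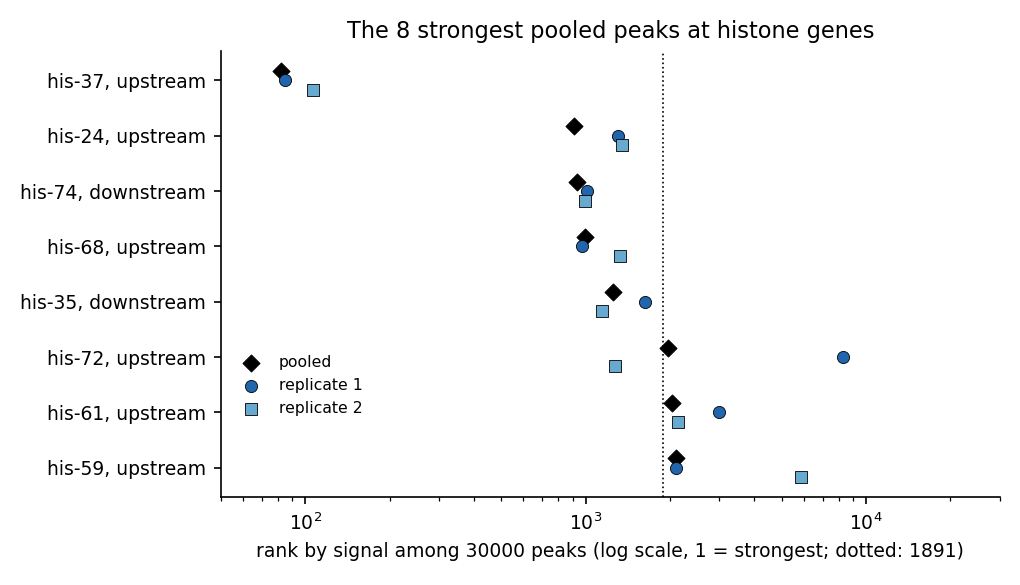
Ranks (x axis, log scale, 1 is the strongest of 30000 peaks) of the 8 strongest pooled peaks at histone genes, named on the y axis by the nearest histone gene, in the pooled list and in each replicate. The dotted line marks rank 1891, the length of the IDR list: the upper 5 peaks lie left of it in all 3 lists, and his-72 lies left of it in replicate 2 only.

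The clustered genes had an IDR summit in 5 of 67 cases (7.46%) and the single genes in 2 of 5 (40%), against 9.9% of all genes. Of the clustered genes 19 (28.4%) had a summit in the full replicate 1 list, 22 (32.8%) in that of replicate 2 and 21 (31.3%) among the pooled peaks. Of the 5 single genes 4 (80%) had one in each. Over all genes the shares were 71.6%, 72.9% and 72%. All 37 histone genes with no summit in any full list were clustered (55.2% of the clustered genes, against 12.7% of all genes). Counted by locus, which avoids counting 1 summit for several genes, 2 of 14 multigene loci and 2 of 5 single ones had an IDR summit. Per kilobase searched this was 0.0333 IDR summits in multigene loci, 0.142 in single ones and 0.0189 over the genome. In the full lists it was 0.178 to 0.211 in multigene loci, 0.64 to 0.925 in single ones and 0.299 over the genome. The genome values are over all bases, near genes or not, so they are not a background of like windows. The IDR value of the single loci rests on 2 summits in 14.1 kb, 1 of them in the 5′ UTR of ccch-3. With 5 single genes these shares are coarse, and no test was made.

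The genes were also divided by the stem-loop. Of the 57 genes with a perfect stem-loop 1 had an IDR summit (1.75%), and of the 15 without one 6 had (40%). The share over all genes was 9.9%. In replicate 1 the shares were 26.3% with and 53.3% without the stem-loop, against 71.6% of all genes. In replicate 2 they were 28.1% and 66.7%, against 72.9% of all genes. No summit in any full list lay at 34 genes with the stem-loop (59.6%) and at 3 without it (20%). The 3 clustered genes that had introns and no stem-loop, his-35, his-41 and his-37, were all at IDR summits and form 1 locus on V. Of the 56 clustered genes with a stem-loop and 1 exon, 1 had an IDR summit and 23 had a summit in some full list. By type, IDR summits lay at 2 of 17 H2A genes, 1 of 16 H2B genes, 0 of 15 H3 genes, 2 of 16 H4 genes, 1 of 5 H3.3 genes and the H1 gene. A summit in some full list lay at 9 of 17 H2A, 5 of 16 H2B, 6 of 15 H3, 8 of 16 H4 and all 5 H3.3 genes. For comparison, 9.9% of all protein-coding genes had an IDR summit and 12.7% had no summit in any full list.

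Clustered and single genes also differed in how much of their sequence is unique, which limits where a read can be placed. For each gene with 1000 bp on each side, the share of 31-base words found once in the reference on either strand was counted. The median was 40.4% for the histone genes and 98.9% for all protein-coding genes. It was 37.3% for clustered and 99.7% for single histone genes, and 28.2% for genes with the stem-loop and 93.8% for those without. By type it was 40.8% for H2A, 14.8% for H2B, 38.7% for H3, 45.7% for H4 and 98.4% for H3.3 genes. Within the genes alone, flanks left out, the median over histone genes was 0.666%, and 35 of the 72 genes held no unique word at all. With flanks, 15 histone genes still held none. How reads that match several sites were placed is stated neither in the labels nor in the file headers. In the 3 full lists 0.54% to 0.733% of peaks had fewer than 50% unique words. Of the single words of the genome 8.73% were not unique. The first is a share of peaks and the second a share of words, so they cannot be set against each other.

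Setting genes of like uniqueness beside each other gave the following. Under 20% unique words, 24 of 27 histone genes (88.9%) and 206 of 218 other genes (94.5%) had no summit in any full list, and an IDR summit lay at 0 of these histone genes and 1 of the other genes. From 20% to under 50%, 8 of 14 histone genes (57.1%) and 132 of 238 other genes (55.5%) had no summit. From 50% to under 80%, 4 of 10 histone genes (40%) and 351 of 1310 other genes (26.8%) had none. At 80% or more, 1 of 21 histone genes (4.76%) and 10% of 18135 other genes had none. The share of histone genes without a summit was thus near that of other genes in the 2 lowest bins, and it was lower in each bin than in the less unique bin before it. The part that read placement plays in the low counts at clusters was not tested.

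**Figure D3:**
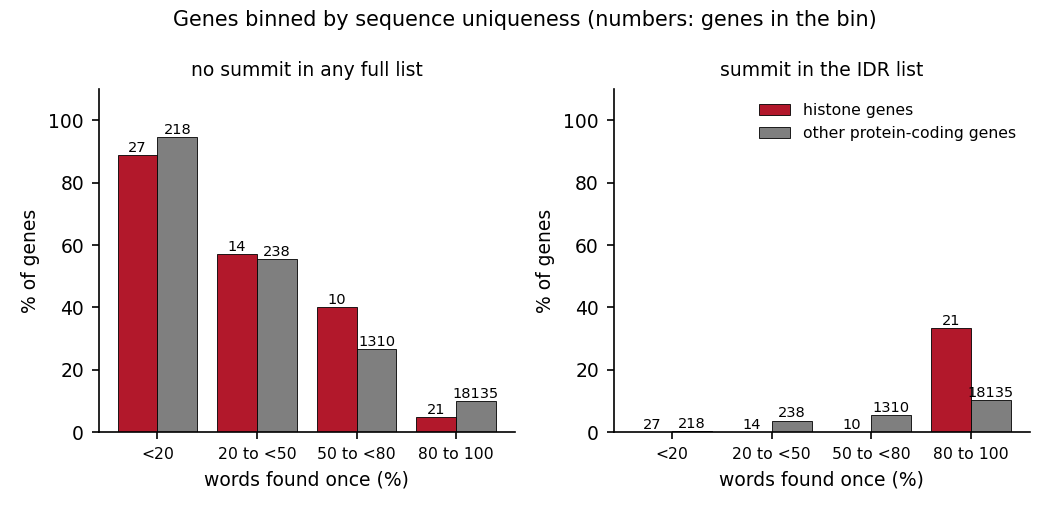
Share of genes (y axis, percent) with no summit in any full list (left panel) and with an IDR summit (right panel), for histone genes and other protein-coding genes binned by the share of 31-base words found once in the gene and its 1000 bp flanks (x axis), with the number of genes above each bar. The share without a summit falls from the least to the most unique bin in both sets of genes, and IDR summits at histone genes all stand in the bin of 80% or more.

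All 7 histone genes with an IDR summit were among the 21 with 80% or more unique words, where they made up 33.3%, against 10.4% of other genes. A replicate 1 summit lay at 15 of these 21 genes (71.4%, against 74.2% of other genes). A replicate 2 summit lay at 19 (90.5%, against 75.9%), and a pooled summit at 16 (76.2%, against 74.8%). The low shares over all 72 genes were therefore not seen in the 21 genes. Of the 21, 9 had the stem-loop, and 1 of these had an IDR summit, while all 9 had a summit in replicate 2, 7 had one in replicate 1 and 6 a pooled one. Of the 12 without it, 6 had an IDR summit, 10 a summit in replicate 2, 8 one in replicate 1 and 10 a pooled one. These groups still differed in uniqueness. The median was 84.2% unique words with the stem-loop (81.6% to 91.3%) and 98.1% without it (82.9% to 99.9%). The 7 genes rest on 5 summits, so these shares are over few independent sites. The limit of 80% was chosen after the data had been seen.

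**Figure D4:**
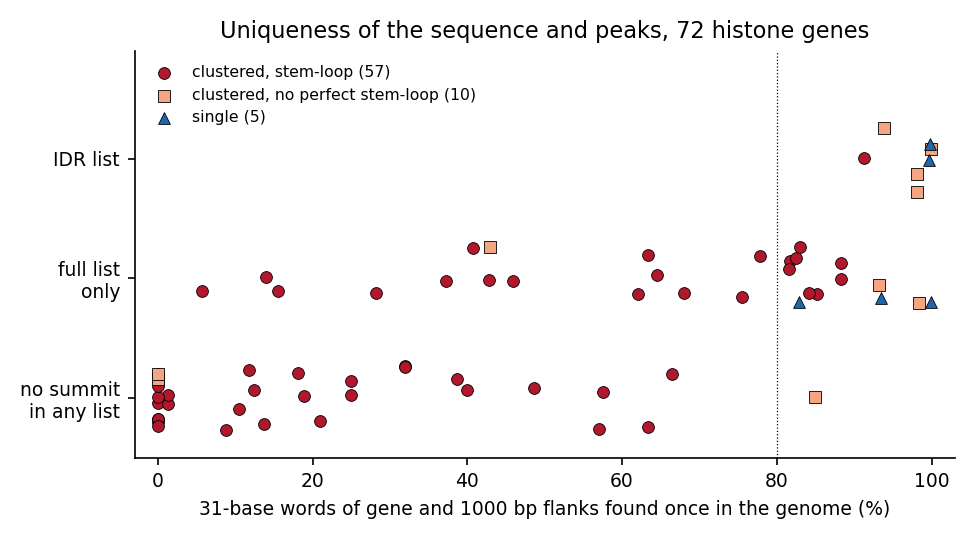
Each of the 72 histone genes by the share of unique 31-base words in the gene and its 1000 bp flanks (x axis, percent) and by its best class of peak (y axis: no summit in any list, a summit in a full list only, or an IDR summit, with vertical scatter for legibility). All genes at IDR summits lie right of the dotted line at 80%, 1 of them with a perfect stem-loop (his-67), and 24 of the 27 genes under 20% have no summit in any list.

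The multigene loci differed widely among themselves. The his-35, his-41 and his-37 locus on V (2949 bp) had 98.94% unique words, 2 IDR summits and 5 pooled ones. A weaker pooled summit lay 63 bp before his-41, between the divergent his-35 and his-41, at rank 3603. The his-61, his-62, his-60 and his-59 locus on IV (2826 bp) had 86.91% unique words, 0 IDR summits and 3 pooled ones. The 13-gene locus from his-16 to his-42 on II (10938 bp) had 19.17% unique words and 2 pooled summits, the stronger at rank 8815. It lay 329 bp past the 3′ end of his-16, at the edge of the cluster. The locus of his-50, his-49, his-51, his-52, his-54 and his-53 on V had 0% unique words over 6661 bp and its flanks and no summit in any list. Its near copy from his-28 to his-18 (8 genes, 8.873% unique words) had 1 pooled summit, at rank 29928. The locus of his-55, his-56, his-58 and his-57 on IV had 48.02% unique words and likewise no summit in any list. Of the other loci on IV, that from his-29 to his-34 had 49% unique words and its best pooled summit, rank 9315, inside his-31, that from his-47 to his-45 had 39.96% and rank 25305, and that from his-66 to his-64 had 59.9% and rank 7968. The summit of rank 7968 lay inside the locus but more than 1000 bp from each of its genes, so it counted for none of them, and the best that counted was at his-65, at rank 27510. Mostly unique sequence did not always go with a pooled summit. The loci of his-38 and his-40 on X (86.2% unique words), his-4 to his-1 on V (79.84%) and his-8 to his-39 on V (70.21%) had none, and their best replicate summits ranked 17534, 15382 and 17058.

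**Figure D5:**
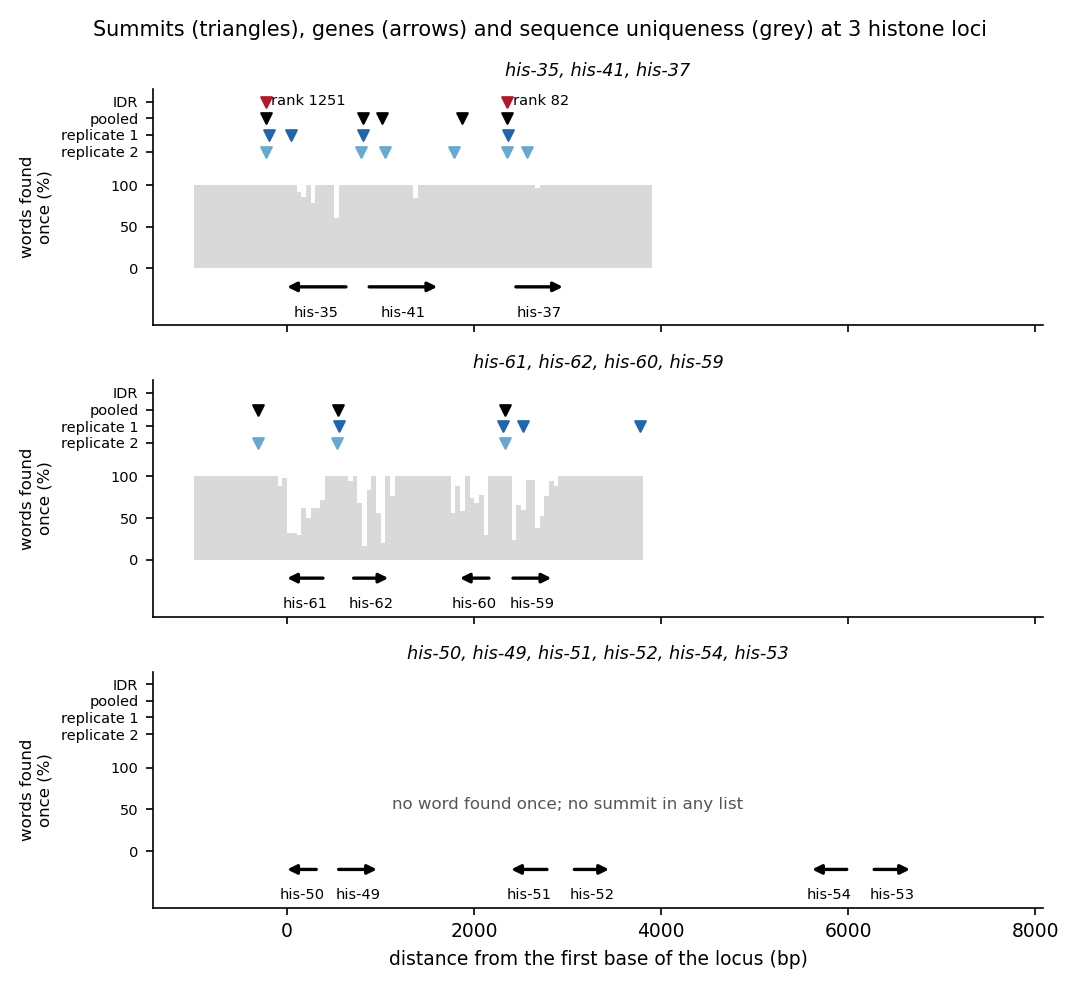
Maps of 3 histone loci by distance from the first base of the locus (x axis, bp), with arrows for the genes, triangles for summits in each of the 4 lists and grey for the percent of 31-base words found once (lower part of the y axis, 50 bp bins). The upper 2 loci hold both unique words and summits, and the his-50 locus holds neither.

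Core histone genes of the clusters mostly stand in divergent pairs that share 1 upstream region. There were 31 such pairs, 227 to 368 bp apart at their starts (median 258). Of the 11 pairs with 50% or more unique words between them, 7 had a summit there in some list: 1 had an IDR summit, 4 a pooled one, 5 one of replicate 1 and 6 one of replicate 2. Of the 20 pairs with fewer, 0 had a summit in any list. The same share over other divergent gene pairs was not counted, so 7 of 11 has no background beside it. The pairs his-31/his-32, his-63/his-64, his-8/his-7 and his-2/his-1 were unique enough and had none. The summits at his-6/his-5, his-4/his-3 and his-38/his-40 stood in 1 replicate each, at ranks 17058, 15382 and 17534.

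The H3.3 genes all had pooled summits, against 72% of all genes, at levels far apart. The peak at his-74 was in the IDR list and that at his-72 just outside it. At his-71 the summit lay 45 bp inside the gene at pooled rank 9045, with rank 5742 in replicate 2 and no peak in replicate 1. At his-70 and his-69, which have no introns and lie together on III, the pooled ranks were 28519 and 28974, and both summits were inside the genes. Replicate 2 had them at ranks 13742 and 9478, and replicate 1 had none at either gene. Replicate 2 thus had a summit at all 5 H3.3 genes, against 72.9% of all genes, and replicate 1 at 2, against 71.6%. The fragment his-73 had summits in replicate 1 only, the best at rank 12418, and his-39 had none.

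The sequences at the summits were then compared. The summit windows of his-37 and his-24 shared a run of 20 bases, noticed on reading the sequences, which occurs 5 times in the genome. Among the 10 pairs of windows of 101 bases around the IDR summits at histone genes, the next longest shared runs were 15 bases, of each of these 2 with the window of his-68, and all others were 7 or 8 bases. The stretch of that run, 12 bases or longer, that lay between the most divergent pairs was 12 bases long and is in capitals in the sequences that follow, each with 25 bases on both sides, read 5′ to 3′ in the direction of the run. They show how far the likeness between histone promoters reaches beyond it. The copies at his-12 and his-43 read as at his-16, those at his-58 and his-66 as at his-48, and that at his-18 as at his-28 and his-50.
his-37 (chrV:9546980-9547041, plus strand): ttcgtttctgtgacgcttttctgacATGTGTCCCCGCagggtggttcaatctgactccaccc
his-24 (chrX:14490008-14490069, plus strand): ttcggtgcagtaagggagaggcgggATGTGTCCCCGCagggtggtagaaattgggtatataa
his-60 (chrIV:7488072-7488133, minus strand): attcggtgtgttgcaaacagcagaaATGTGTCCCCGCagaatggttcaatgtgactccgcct
his-4 (chrV:16040594-16040655, minus strand): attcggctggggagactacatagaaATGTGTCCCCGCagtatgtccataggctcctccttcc
his-16 (chrII:13818204-13818265, minus strand): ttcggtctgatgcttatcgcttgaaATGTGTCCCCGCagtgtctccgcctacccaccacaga
his-48 (chrIV:11324620-11324681, plus strand): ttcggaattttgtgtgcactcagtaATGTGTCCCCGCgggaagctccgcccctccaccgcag
his-28 (chrV:8889872-8889933, minus strand): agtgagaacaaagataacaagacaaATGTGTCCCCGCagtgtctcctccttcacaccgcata

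The run stood 89 bases before the start of his-37, 50 before his-24, 105 before his-60, 104 before his-4, 86 before his-16, 89 before his-48 and 98 before his-28. On either strand it lay within 300 bp upstream of 28 of 72 histone genes (38.9%) and of 3 of 19901 other genes (0.0151%). It was present upstream of his-24 (H1), 8 of 17 H2A, 7 of 16 H2B, 5 of 15 H3 and 7 of 16 H4 genes, and of 0 of 5 H3.3 genes. It lay between 13 of the 31 divergent pairs. The run was picked for its presence at these genes, so the shares describe it and are no test. Repeated clusters also carry the same copies: the 15 copies within 1000 bp of histone genes had 9 distinct sequences when 25 bases on each side were included.

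The summit of his-37 stood within the run, and those of his-68 and his-24 were 16 and 34 bases from it. The run was thus within 50 bp of 3 of the 5 IDR summits at histone genes and of 4 of all 1891 IDR summits (0.212%). It was read from the windows of his-37 and his-24, so its presence there was fixed in advance and these shares are no test. The IDR summits at his-74 and his-35 had no copy within 300 bp. The pooled summits at his-72 and his-61 had none either, and that at his-59 was 54 bases from one. Of the 15 copies at histone genes 3 had an IDR summit within 200 bp, and of the 25 copies elsewhere 3 had. The 2 sets differed in uniqueness: 50% or more of the words around were unique at 5 of the 15 and at 19 of the 25. Of the 11 divergent pairs with 50% or more unique words between them, 4 held the run. All 4 had a summit in some list, as did 3 of the 7 without it. The summits at his-6/his-5 and his-4/his-3, with the run, and at his-38/his-40, without it, stood in 1 replicate each. A pooled summit lay at his-67/his-68 and his-60/his-59, with the run, and at his-61/his-62 and his-35/his-41, without it. The run was picked from sequences that include these pairs, so these counts are no test. A copy of the run is a match of letters, not a bound site.

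Motifs of 6 bases were searched within 50 bp of the summits on both strands. The homeodomain motif TAATTA was at 0 of the 5 IDR summits of histone genes, against 6.93% of all IDR summits. TAATTG, which shares its first 5 bases with TAATTA, was at 0 of 5, against 11.6%. GAGAGA was at 1 of 5, against 21.6%, and CCGCCC at 2 of 5, against 5.98%. The GC content of the 101 bases around the histone summits had a median of 44.6%, and 45.5% around all IDR summits. The window of his-35 is shown as a histone summit without the shared run, on the minus strand. Its capitals mark the motif, which reads CCGCCC on the other strand.
his-35 (chrV:9544379-9544479, minus strand): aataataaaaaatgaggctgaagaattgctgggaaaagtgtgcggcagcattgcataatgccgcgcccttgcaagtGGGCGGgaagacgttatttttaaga

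For the wider pathway, 24 other genes of histone supply and exchange were counted in the same way. They were the H1-like hil genes, the variant histone genes htz-1, hcp-3 and cpar-1, the stem-loop binding protein gene cdl-1, and genes of histone chaperones and remodelers. An IDR summit lay at 4 of the 24 (16.7%), against 9.9% of all genes. Pooled summits lay at 22 (91.7%, against 72% of all genes), replicate 1 summits likewise at 22 (against 71.6%), and replicate 2 summits at 17 (70.8%, against 72.9%). The 4 were htz-1, which encodes H2A.Z, with the summit 310 bp before its start at rank 163, unc-85, an ASF1 histone chaperone gene, at rank 1538, chaf-2, a subunit of the chromatin assembly factor that deposits H3 and H4 at replication, at rank 1843, and lin-53, an RbAp48 homologue that binds H3 and H4, at rank 84. The replicate 1 summit at lin-53 ranked 136 and its replicate 2 summit 61. At htz-1 these ranks were 219 and 171. In replicate 2 those at unc-85 and chaf-2 ranked 3445 and 4718. The stem-loop binding protein gene cdl-1 had a pooled summit at rank 8597 and no IDR summit.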

How the data were processed

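The lists hold sites of anti-GFP chromatin immunoprecipitation from whole larvae in 2 biological replicates. Per the file headers, the authors derived replicate peaks on ce11 from an alignment and its control, and the deposited signal value of each peak is the authors' own. Neither labels nor headers name its scale, the aligner, the caller or the IDR threshold used. The deposited summit offset and peak positions (other columns) were used as given, with the summit 1-based, and the deposited −log10 q-values were not used. Gene models were those of Ensembl release 115 on WBcel235, the same assembly as ce11. Names were taken from RefSeq through WormBase IDs because several histone genes share a name in Ensembl, and all 72 matched. No peak ran past a chromosome end. Histone genes within 5000 bp were joined into loci. Words of 31 bases were called unique when found once on both strands of the reference.

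No tests were made: all results are counts beside the same share over all protein-coding genes, and intervals are exact 95% binomial intervals that cover counting error only and treat genes as independent. Genes named were those at IDR summits, the single genes, the H3.3 genes and the strongest pooled peak of each multigene locus. The gene lists and comparisons were chosen with earlier results of these data known. The stem-loop search and the shared run were set after the sequences had been read. Alternatives were other distances, list lengths, ways of assigning summits and joining distances, and each replicate alone. Counting, joining and word steps were tested on simulated data. Python 3.11.15, numpy 2.4.6, pandas 2.3.3, scipy 1.17.1 and matplotlib 3.10.9 were used.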

Additional observations from a re-analysis of the deposited data

How the results depend on the processing

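Of 56 alternatives for the counts of histone genes and loci, 35 stayed within 1.5 times the reported count and 21 did not. Counting only summits inside the gene left 0 of the 7 genes at IDR summits (0 clustered, 0 single), and 8, 8 and 6 of those with a replicate 1, replicate 2 or pooled summit. No share over all genes is given beside these counts. The stronger 50% of the IDR list gave 4 genes, 2 of them clustered. Giving each summit to the nearest protein-coding gene only gave 3 genes, 2 clustered and 1 single. Limiting each full list to its 1891 strongest peaks gave 7 genes for replicate 1, 8 for replicate 2 and 7 for the pooled peaks. Over all genes the shares were 9.76%, 9.59% and 9.9%. Keeping genes with 80% or more unique words, an alternative chosen after seeing the data, gave 15 of 21 for replicate 1 and 16 of 21 for the pooled peaks. The counts fell because fewer genes were kept. As shares they were 71.4% and 76.2%, against 31.9% and 34.7% of all 72 histone genes. Dividing the genes by a perfect stem-loop in place of clustering put 1 gene at IDR summits in the first class and 6 in the second, and with 1 unpaired position, also chosen after seeing the data, 2 and 5. With 945 strongest peaks of each replicate, 2 genes had a strong peak in both. With 1 replicate left out, 7 to 8 genes, 5 clustered and 2 to 3 single ones, and 4 to 5 loci had a summit among the strongest 1891. Joining genes within 2000 or 10000 bp left 67 clustered and 5 single genes. No paired analysis was possible because both replicates belong to 1 group. Read depth is unknown, so a missing peak cannot be told from too few placed reads.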
